A study of Homo sapiens with 6 samples.

Results

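The classical serine/arginine-rich (SR) protein genes SRSF1 to SRSF10 were taken from the gene count table by their symbols, which matched 10 of its 58735 genes. The samples are cultures of LoVo, a cell line from a human colorectal cancer. They received either the control siRNA (si-NC, 3 libraries) or an SRSF11 siRNA (si-SRSF11, 3 libraries), and carry no other labelled change. Polyadenylated RNA was read as paired-end reads, and the values are raw counts of reads per gene. The labels do not state which of the study's SRSF11 siRNAs was sequenced. The study describes its RNA samples as independent, but neither it nor the labels say whether they came from separate cultures, so p-values measure the spread between these libraries, which may be technical. All 10 genes passed the filter of at least 10 counts in at least 3 libraries, with mean counts between 755.7 for SRSF1 and 3129 for SRSF3, among 15801 genes tested.

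SR proteins carry RNA recognition motifs at one end and a domain rich in arginine and serine dipeptides at the other. They bind exonic enhancers, recruit the spliceosome to weak splice sites and, in some cases, hand the spliced mRNA to the export receptor NXF1. Phosphorylation by the SRPK and CLK kinases sets their place in the nucleus and their activity. Many SR genes hold a poison exon, a cassette whose inclusion introduces a premature stop codon and sends the transcript to nonsense-mediated decay, and SR proteins regulate their own and each other's poison exons.

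The poison exons show what a gene count mixes together. In GENCODE 29 (GRCh38), each of the 10 genes has at least 1 transcript annotated as a target of nonsense-mediated decay, 21 transcripts in all. In SRSF3, SRSF4, SRSF6, SRSF7 and SRSF9 such a transcript keeps the normal start codon and ends its reading frame in an exon that overlaps no exon of a protein-coding transcript. The part of that exon read before translation stops is shown 5′ to 3′ on the coding strand for each of them, with the premature stop codon in capitals.
SRSF3: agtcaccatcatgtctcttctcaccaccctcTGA
SRSF4: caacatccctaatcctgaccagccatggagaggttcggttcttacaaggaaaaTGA
SRSF6: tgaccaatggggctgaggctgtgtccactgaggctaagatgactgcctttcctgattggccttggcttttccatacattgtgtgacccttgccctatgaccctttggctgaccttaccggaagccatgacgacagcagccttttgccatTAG
SRSF7: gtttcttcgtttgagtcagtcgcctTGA
SRSF9: aaaactatTAG

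The SRSF3 stretch lies at chr6:36599821-36599854 on the plus strand, inside an exon of 456 bases that is exon 4 of ENST00000477442.6. SRSF3 has a second exon of this kind, of 98 bases, which is not shown. The SRSF4 stretch lies at chr1:29166009-29166064 on the minus strand, in an exon of 175 bases, and the SRSF6 stretch at chr20:43459153-43459304 on the plus strand, in an exon of 268 bases. The SRSF7 stretch lies at chr2:38749319-38749346 on the minus strand, in an exon of 449 bases, and the SRSF9 stretch at chr12:120464812-120464822 on the minus strand, in an exon of 90 bases. The decay transcripts of SRSF1, SRSF2, SRSF5, SRSF8 and SRSF10 hold no exon that meets these criteria. Reads on the exons shown here add to the same gene count as reads on the coding exons, so the counts cannot tell a productive transcript from a decay target.

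The share of annotated exon bases that occur in no protein-coding transcript ranged from 0% in SRSF8 to 73.2% in SRSF4. It was 67.9% in SRSF9, 40.6% in SRSF10, 38.5% in SRSF7, 38.4% in SRSF3 and 38.2% in SRSF5. In SRSF6, SRSF1 and SRSF2 it was 5.83%, 4.13% and 3.02%. SRSF4 and SRSF9 thus have more annotated exon bases outside coding transcripts than inside, and the other 8 members have fewer.

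Library totals ranged from 14369525 to 16685719 counts. The targeted gene SRSF11, which belongs to the same family, stood at 87.6, 84.3 and 87.5 CPM (counts scaled to a common library size) in si-NC replicates 1, 2 and 3 and at 50.4, 48.5 and 49.5 CPM in si-SRSF11 replicates 1, 2 and 3, scaled by edgeR's TMM factors. This is a log2 fold change of -0.81 with a standard error of 0.054 (adjusted p = 6.1e-10, edgeR's quasi-likelihood test with Benjamini-Hochberg adjustment over all tested genes), which left 57.2% of the control level. Of the epithelial markers, KRT8 had at least 45266 counts and EPCAM at least 3477 in each library, while CEACAM5, GPA33 and KRT20 had at most 20. CDX1 and CDX2 were higher in si-SRSF11, 2 of 11 such markers (18.2%, beside 13.2% of all tested genes), and 0 were lower. Of 11 fibroblast and leukocyte markers only 4 passed the filter and 1, PDGFRB, was higher (log2 fold change 0.70, 114 to 148 against 221 to 246 counts). DCN and PTPRC had 0 counts in each library, and the part of other cell types in the results was not tested.

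Of the 10 classical SR genes, 9 were higher after SRSF11 knockdown and 1, SRSF9, did not pass the test. The 9 higher genes rose by 14.7% to 30.4%, and the median log2 fold change over the 10 genes was 0.30, beside 0.00 over all tested genes. At an adjusted p under 0.05, 13.2% of all 15801 tested genes were higher and 11.4% were lower. Deeply read genes pass more often, so the members were also read against the 4657 genes with a mean count at least that of SRSF1, of which 22.8% were higher and 17.4% lower. In 8 of the 10 members each si-SRSF11 library lay above each si-NC library, while 38.8% of all tested genes showed no overlap in either direction. That share counts falls as well as rises and genes of any depth, so it is not matched to the members. None of the members passed an absolute log2 fold change of 1, a size that 1.09% of tested genes reached with an adjusted p under 0.05. Scaling by library size alone gave 1585 higher and 2289 lower genes in place of 2081 and 1805, and with it 8 members stayed higher.

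**Figure D1:**
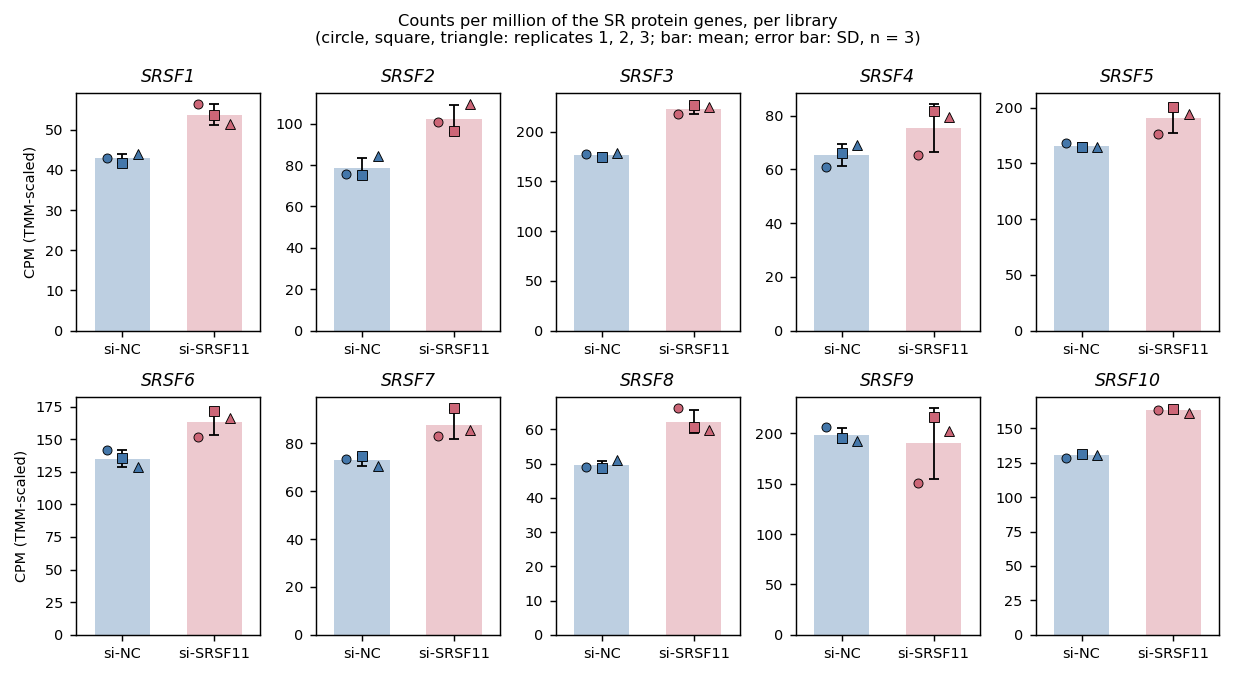
CPM of each SR protein gene (TMM-scaled, vertical axes starting at 0) in the 3 si-NC libraries (blue) and the 3 si-SRSF11 libraries (red), with bars for the mean and error bars for the SD. The groups are apart in 8 panels and overlap in SRSF4 and SRSF9, where si-SRSF11 replicate 1 (circle) is the lowest knockdown library.

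SRSF2, which binds exonic enhancers and stays in nuclear speckles, and SRSF8, whose coding sequence lies in a single exon, share 83.6% of the bases of the shorter coding sequence, the highest value of any member pair. SRSF2 (ENSG00000161547, chromosome 17, 76734115 to 76737374, minus strand) measured 75.8, 75.3 and 84.2 CPM in si-NC replicates 1, 2 and 3 and 101.03, 96.2 and 109.5 CPM in si-SRSF11 replicates 1, 2 and 3. All 3 knockdown libraries were above the highest control, and the rise to 130.4% of control was the largest among the members (log2 fold change 0.38, 95% interval 0.26 to 0.50, adjusted p = 4.7e-05 from edgeR). SRSF8 (ENSG00000263465, chromosome 11, 95067197 to 95071224, plus strand) measured 48.9, 48.7 and 51.0 CPM in si-NC and 66.2, 60.7 and 59.9 CPM in si-SRSF11. Again no knockdown library reached down to a control library, with a log2 fold change of 0.33 (95% interval 0.21 to 0.45, adjusted p = 0.00032 from edgeR). No stretch of 100 bases of an SRSF2 transcript occurs in an SRSF8 transcript, and both genes moved the same way. On the opposite strand of SRSF2, MFSD11 covers 36.7% of its exon bases, and the library preparation is not stated to be strand-specific. MFSD11 had 240 to 276 counts in si-NC and 264 to 303 in si-SRSF11, a log2 fold change of 0.03 that did not pass (adjusted p = 0.86 from edgeR).

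SRSF3 and SRSF7 are the members best known as adaptors of mRNA export, and both also shape 3′ end formation. SRSF3 (ENSG00000112081, chromosome 6, 36594353 to 36605600, plus strand) measured 178.0, 174.9 and 178.5 CPM in si-NC and 217.6, 226.9 and 224.7 CPM in si-SRSF11. The spread within each condition was small, 1.94 and 4.85 CPM as SD (n = 3), and the groups did not overlap. The log2 fold change was 0.33 (95% interval 0.24 to 0.43, adjusted p = 1.4e-05 from edgeR). SRSF7 (ENSG00000115875, chromosome 2, 38743599 to 38751494, minus strand) measured 73.4, 74.8 and 70.5 CPM in si-NC and 82.9, 94.6 and 85.7 CPM in si-SRSF11. The groups did not overlap, and si-SRSF11 replicate 2 stood above the other libraries (log2 fold change 0.27, 95% interval 0.15 to 0.39, adjusted p = 0.0014 from edgeR). Both genes hold one of the poison exons printed above, and neither shares exon bases with another annotated gene.

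SRSF4, SRSF5 and SRSF6 form a subfamily with tandem RNA recognition motifs and a long arginine/serine domain in SRSF4 and SRSF6. SRSF6 (ENSG00000124193, chromosome 20, 43457928 to 43464247, plus strand) measured 141.4, 135.5 and 128.3 CPM in si-NC and 152.0, 171.8 and 166.6 CPM in si-SRSF11. Its groups did not overlap, and its log2 fold change was 0.28 (95% interval 0.16 to 0.39, adjusted p = 0.00061 from edgeR). SRSF5 (ENSG00000100650, chromosome 14, 69726900 to 69772005, plus strand) measured 168.2, 165.0 and 164.9 CPM in si-NC and 176.1, 201.0 and 194.1 CPM in si-SRSF11. The controls lay close together and below all knockdown libraries, with the lowest knockdown value in replicate 1 (log2 fold change 0.20, 95% interval 0.09 to 0.30, adjusted p = 0.0068 from edgeR). Without si-SRSF11 replicate 2 the SRSF5 value was 0.16 and missed the threshold (adjusted p = 0.051 from edgeR).

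SRSF4 (ENSG00000116350, chromosome 1, 29147743 to 29181987, minus strand) was the weakest of the 9 calls. It measured 60.8, 65.9 and 68.9 CPM in si-NC and 65.2, 81.6 and 79.4 CPM in si-SRSF11. The knockdown value of replicate 1 fell inside the control range, and the ranges met (p = 0.30, exact permutation test, two-sided), while the edgeR fit gave a log2 fold change of 0.21 (95% interval 0.06 to 0.36, adjusted p = 0.035). The call was lost without si-NC replicate 1 (0.16, adjusted p = 0.18), without si-NC replicate 2 (0.22, adjusted p = 0.089), without si-SRSF11 replicate 2 (0.15, adjusted p = 0.19) and without si-SRSF11 replicate 3 (0.17, adjusted p = 0.11) in the edgeR fit. DESeq2 (adjusted p = 0.065) and scaling by library size alone (adjusted p = 0.072) did not call it either.

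SRSF10 is known as a splicing repressor that becomes active when it is dephosphorylated, as in heat shock. SRSF10 (ENSG00000188529, chromosome 1, 23964804 to 23980927, minus strand) measured 128.7, 131.5 and 130.8 CPM in si-NC and 163.4, 164.3 and 161.2 CPM in si-SRSF11. It was among the most evenly measured members, with an SD of 1.44 CPM in si-NC and 1.57 CPM in si-SRSF11 (n = 3 each). The 3 knockdown libraries lay well above the 3 controls, with a log2 fold change of 0.32 (95% interval 0.23 to 0.42, adjusted p = 1.9e-05 from edgeR).

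SRSF1 and SRSF9 are the closest relatives of each other by domain layout, both with a pseudo RNA recognition motif, and share 70.3% of the bases of the shorter coding sequence. SRSF1 (ENSG00000136450, chromosome 17, 58003360 to 58007346, minus strand), the founding member of the family and a regulator of both constitutive and alternative splicing, measured 43.0, 41.8 and 44.0 CPM in si-NC and 56.4, 53.6 and 51.3 CPM in si-SRSF11. Its groups did not overlap, and the log2 fold change was 0.32 (95% interval 0.20 to 0.45, adjusted p = 0.00049 from edgeR). The gene AC015813.2 on the same strand covers 56.6% of the exon bases of SRSF1 and had at most 1 count in any library, so hardly any read was counted for it. Whether shared reads were counted for SRSF1 or dropped is not stated. On the opposite strand, AC015813.5 covers 13.2% of these bases and had 15 to 24 counts per library.

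SRSF9 (ENSG00000111786, chromosome 12, 120461668 to 120469793, minus strand) parted from its relative. It measured 206.1, 195.6 and 192.6 CPM in si-NC and 150.5, 216.8 and 202.9 CPM in si-SRSF11. Replicate 1 of the knockdown was below all controls, replicate 2 was above them, and replicate 3 lay inside their range. The log2 fold change was -0.06 (95% interval -0.23 to 0.11, adjusted p = 0.65 from edgeR). This interval ends below the estimates of all 9 called members, but it overlaps the intervals of SRSF4 (0.06 to 0.36) and SRSF5 (0.09 to 0.30). The deviation of si-SRSF11 replicate 1 from the mean of the other two knockdown libraries was -0.48 on the log2 scale. Of the 4657 deeply read genes, 12 lay at least as far below in that library, SRSF9 included. Without it the log2 fold change of SRSF9 was 0.08 and still did not pass (adjusted p = 0.28 from edgeR).

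On the opposite strand, GATC covers 46.2% of the exon bases of SRSF9, and with no strand stated, reads from the overlap cannot be told apart. GATC had 431, 424 and 480 counts in si-NC and 500, 434 and 442 in si-SRSF11, so its highest count was in the library where SRSF9 had its lowest, 2354 counts against 3524 and 3308. The part of this overlap in the SRSF9 result was not tested. The same library was below both other knockdown libraries in 6 of the 10 members. In SRSF4 it lay 0.30 and in SRSF5 0.17 below their mean on the log2 scale. This count was 1 and 3 in si-SRSF11 replicates 2 and 3, and 2, 4 and 4 in si-NC replicates 1, 2 and 3. The same count over all genes was not computed, so it is not read as a trait of the members. Of the deeply read genes, 5.05%, 1.63% and 3.89% lay more than 0.2 below in si-SRSF11 replicates 1, 2 and 3. Across the deeply read genes, 6.61% deviated by more than 0.2, up or down, in si-SRSF11 replicate 1. The shares were 2.96% in replicate 2 and 8.25% in replicate 3 of si-SRSF11, against 0.795% to 1.37% in the si-NC libraries.

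**Figure D2:**
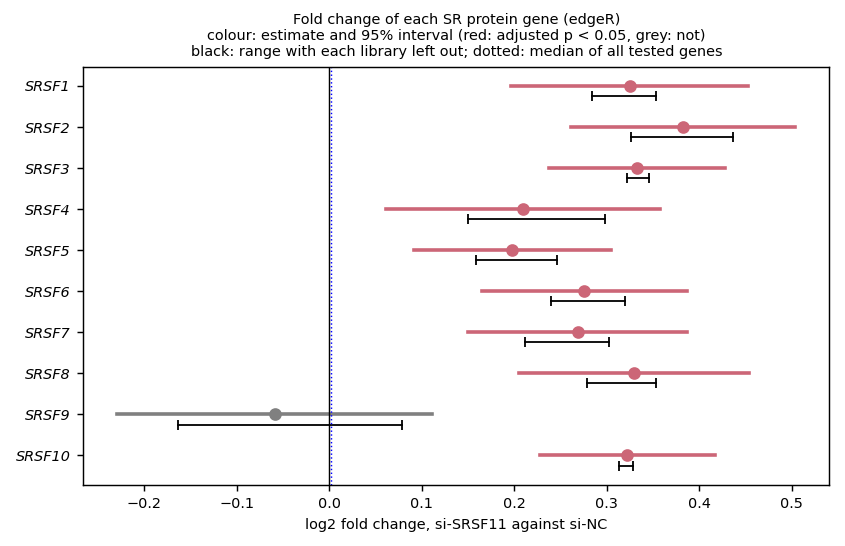
Log2 fold change of each SR protein gene, si-SRSF11 against si-NC, with its 95% interval from edgeR (red, adjusted p under 0.05; grey, not passed) and, in black, the range of estimates when each library was left out in turn (blue dotted line, median of all tested genes). SRSF9 is the only estimate below 0 and its range crosses 0, while the SRSF3 and SRSF10 ranges are the narrowest.

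SRSF1, SRSF2, SRSF3, SRSF6, SRSF7, SRSF8 and SRSF10 kept an adjusted p under 0.05 in each of 14 other fits, 98 values in all. Their log2 fold changes lay between 0.21 and 0.44 and their adjusted p reached 0.016 at most. The 14 fits are the 6 that left out one library and the 8 with another test, scaling, filter or block. The intervals of these 7 genes overlap, and their rises were not tested against each other.

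Levels were compared between members per kilobase of gene length (RPKM), since a longer gene collects more reads. In si-NC, SRSF9 stood first with 52.9 ± 1.90 RPKM (SD, n = 3), followed by SRSF5 with 31.0 ± 0.350 and SRSF6 with 29.4 ± 1.43. SRSF5 and SRSF6 overlapped between libraries, as did SRSF2 (26.0 ± 1.65) and SRSF3 (24.9 ± 0.272). SRSF7 followed with 18.0 ± 0.544 RPKM, apart from its neighbours. SRSF1 (12.9 ± 0.329), SRSF10 (12.7 ± 0.140) and SRSF8 (12.3 ± 0.314) each overlapped the next in order, and SRSF4 was last with 7.33 ± 0.466 RPKM. In si-SRSF11 SRSF6 (35.6 ± 2.23) and SRSF5 (35.5 ± 2.40) changed places within their spread, and the order was otherwise the same.

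The order depends on which length is used, a choice examined after the values were seen. The table's gene length counts each annotated exon base, also those of retained introns. For the other lengths the full gene count was divided by fewer bases, and reads on the bases left out stayed in it. These values are therefore not levels of the coding or unshared sequence alone. Per base of protein-coding transcripts, SRSF4 moved from the last place to the sixth, with 27.3 RPKM in si-NC, and SRSF8 became the last with 12.3. Per base not shared with other genes, SRSF1 moved from the seventh place to the third with 32.7 RPKM. SRSF9 was first under each of the 3 lengths, with 98.3 RPKM per base not shared and 165 RPKM per base of protein-coding transcripts.

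Summed over the 10 members, the level rose from 229.9, 225.4 and 226.8 RPKM in si-NC to 247.3, 276.3 and 270.6 RPKM in si-SRSF11. Each knockdown library was above each control, which is the smallest p that 3 against 3 allow (exact two-sided permutation test, p = 0.10). The log2 ratio of the means was 0.22 over the 10 members and 0.29 over the 9 members without SRSF9, where the sums were 173.1 to 175.4 RPKM in si-NC and 207.1 to 218.4 RPKM in si-SRSF11. As a share of all counts, the members made up 0.112% to 0.114% of the si-NC libraries and 0.123% to 0.135% of the si-SRSF11 libraries.

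Within the family, the largest difference in share was that of SRSF9. No member's share could pass, since the smallest p of the permutation test is 0.10 with 3 against 3. The test therefore cannot tell whether the make-up of the family moved. Its share of the summed RPKM was 24.0%, 23.2% and 22.7% in si-NC and 16.3%, 21.0% and 20.0% in si-SRSF11, with no overlap between the groups (exact two-sided permutation test, p = 0.10, adjusted p = 0.29 over the 10 members). The log2 ratio of its mean share was -0.29, and -0.18 without si-SRSF11 replicate 1. A share also falls when the other members rise. The level of SRSF9 itself had a log2 fold change of -0.06 (adjusted p = 0.65 from edgeR), while the summed RPKM had a log2 ratio of 0.22. The share of SRSF3 went from 10.9 ± 0.0949% to 11.9 ± 0.445% (SD, n = 3) and that of SRSF10 from 5.45%, 5.68% and 5.61% to 6.43%, 5.79% and 5.80%, also without overlap. The shares of the other members overlapped between conditions. Among the 9 members without SRSF9, only SRSF3 (from 14.2–14.3% to 14.6–14.8%) and SRSF5 (from 17.5–18.0% to 15.9–17.2%) had shares that did not overlap. Here too neither could pass (adjusted p = 0.45, exact permutation test).

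**Figure D3:**
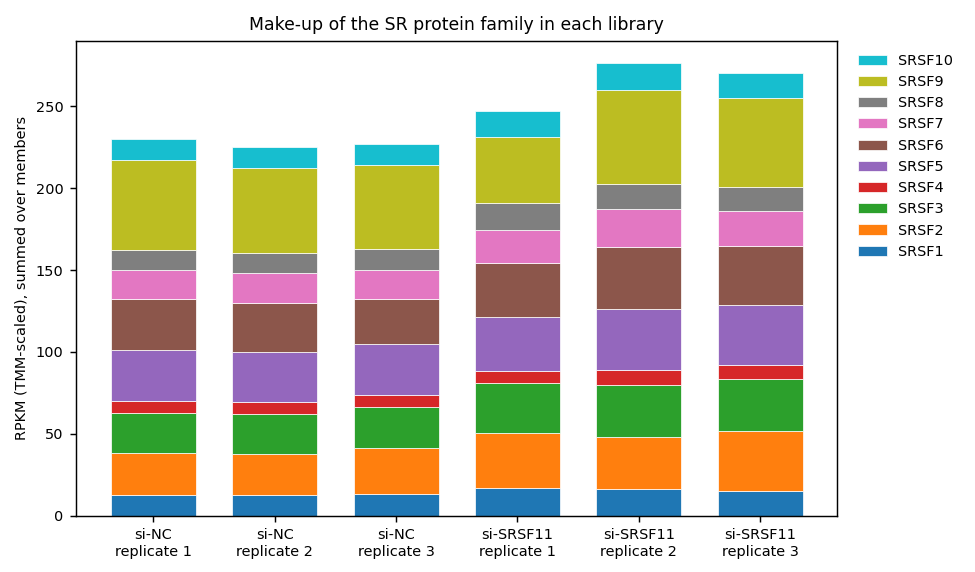
RPKM of the 10 SR protein genes stacked for each library, with the 3 si-NC libraries on the left and the 3 si-SRSF11 libraries on the right. The stacks reach 225.4 to 229.9 RPKM in si-NC and 247.3 to 276.3 in si-SRSF11, and the SRSF9 layer is thinnest in si-SRSF11 replicate 1.

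SRSF12, a brain-enriched relative, had at most 1 count per library, and whether it changed was not detectable at this depth. Processed pseudogenes of the members added little. SRSF9P1 had 1 to 6 counts per library, the SRSF6-like copy AC005822.1 had 0 to 7, SRSF10P1 had 1 count in all, and SRSF1P1 had 0. AC005822.1 shares 2.92% of the 100-base windows of SRSF6.

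The promoters of 9 of the 10 members were found in the RefSeq table (GRCh38.p14, a short window around the transcription start), all but that of SRSF2. A few short motifs were searched on both strands. The GC box GGGCGG occurred in 3 of the 9 (SRSF4, SRSF6 and SRSF7), against 45.0% of 35116 promoters. CCAAT occurred in 2 (SRSF3 and SRSF8) against 34.6%, the ETS motif CCGGAAG in 2 (SRSF4 and SRSF5) against 10.3%, and TATAAA in 2 (SRSF3 and SRSF7) against 11.5%. The E-box CACGTG (7.26% of promoters) and the CRE TGACGTCA (1.85%) occurred in none. No motif is contained in another, and none was shared by more than 3 members.

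Genes that work with the classical SR proteins were read from lists. Among SR-related proteins, which carry arginine/serine-rich stretches outside the numbered core, 14 of 35 tested genes were higher (40.0%) and 1 was lower (2.86%), beside 13.2% and 11.4% of all tested genes and 22.8% and 17.4% of the deeply read ones. Their median log2 fold change was 0.11. BCLAF1, a nuclear factor with an arginine/serine domain, rose from 41.8 ± 3.21 to 60.3 ± 2.71 CPM (SD, n = 3; log2 fold change 0.53, adjusted p = 3.6e-06 from edgeR). DDX23, a helicase of the U5 particle, rose by 0.41, NKTR, a cyclophilin with arginine/serine repeats, by 0.41, and TRA2B, an activator of splicing, by 0.30 on the log2 scale. ACIN1, an apoptosis and exon junction factor named here as the single fall, had a log2 fold change of -0.16 (adjusted p = 0.018 from edgeR).

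The list of kinases that act on SR proteins, which also holds a phosphatase and an importer, had genes called in both directions. Of its 11 genes, 2 were higher (18.2%) and 3 lower (27.3%). Beside these stand 13.2% and 11.4% of all tested genes and 22.8% and 17.4% of the deeply read ones. CLK1 (log2 fold change -0.48, adjusted p = 1.4e-05 from edgeR), CLK4 (-0.37) and SRPK3 (-0.75) were lower. PRPF4B, a kinase of spliceosomal proteins, was higher (0.22, adjusted p = 0.019 from edgeR), as was SRPK1 (0.14), named outside the rule. CLK1 went from 45.7 ± 1.20 to 32.7 ± 1.76 CPM (SD, n = 3), whereas SRPK3 had only 34 to 78 counts per library. The number called fell from 5 to 3 without si-NC replicate 1, without si-NC replicate 3 and without si-SRSF11 replicate 2.

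Other genes known for poison or unproductive exons were called in both directions. Of 18 tested, 4 were higher (22.2%) and 3 lower (16.7%), near the 22.8% and 17.4% of the deeply read genes. Over all tested genes these shares were 13.2% and 11.4%. The median log2 fold change of the 18 genes was -0.01. TRA2B and HNRNPM (0.23) were higher, and CLK1 and CCNL2, a cyclin of nuclear speckles (-0.22), were lower. Of 18 nonsense-mediated decay factors, 1 was higher (5.56%), EIF4A3 (0.22), and 2 were lower (11.1%), SMG9 (-0.43) and SMG5 (-0.15). Their median was 0.00, and the shares of all tested and deeply read genes are those just given. UPF1, the helicase at the centre of the pathway, is named outside the rule, at 178.2 ± 1.33 CPM in si-NC and 178.2 ± 1.35 CPM in si-SRSF11 (SD, n = 3). The number called in this list was 5 without si-SRSF11 replicate 3.

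Among mRNA export partners, 6 of 11 genes were higher (54.5%) and 2 lower (18.2%), with a median of 0.26. Over all tested genes 13.2% were higher and 11.4% lower, and over the deeply read ones 22.8% and 17.4%. ALYREF, an adaptor of the export complex, rose by 0.45 (adjusted p = 3.0e-05 from edgeR), THOC7 by 0.38 and DDX39A by 0.29 on the log2 scale. DDX39B, the close paralogue of DDX39A, went the other way, from 140.4 ± 5.78 to 108.1 ± 0.824 CPM (SD, n = 3; log2 fold change -0.38, adjusted p = 5.0e-06 from edgeR). NXF1, the receptor that SRSF3 and SRSF7 bind, is named outside the rule, with 58.1 ± 0.213 CPM in si-NC and 63.0 ± 2.49 CPM in si-SRSF11, and did not pass (log2 fold change 0.12, adjusted p = 0.13 from edgeR).

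**Figure D4:**
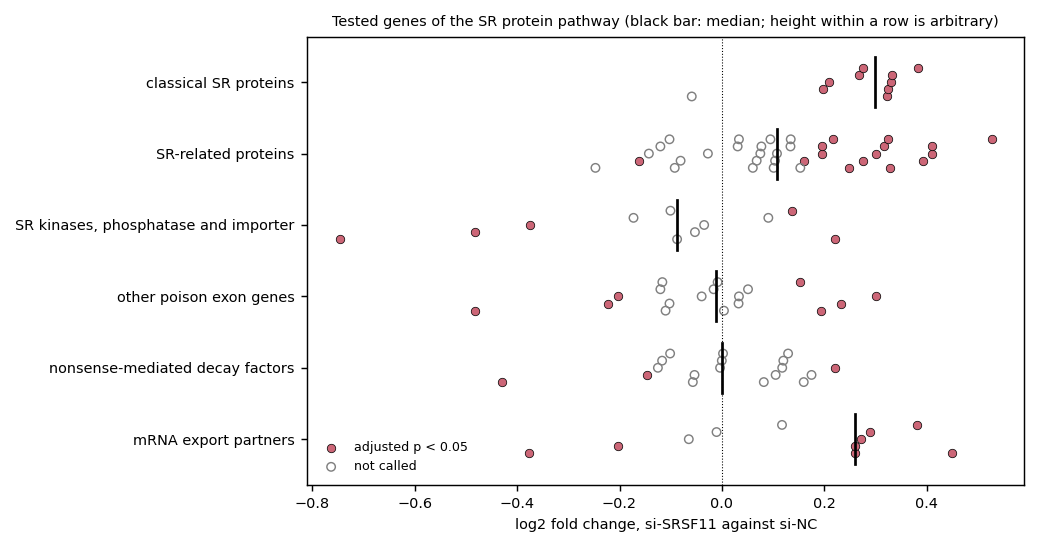
Log2 fold change, si-SRSF11 against si-NC, of each tested gene in the classical SR family and in 5 related lists, with filled points for an adjusted p under 0.05 and a black bar for the median. The classical SR row has 9 filled points right of 0 and 1 open point left of it, while each of the 5 related lists has filled points on both sides.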

How the data were processed

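The authors deposited raw counts of reads per gene for the 6 LoVo libraries in 1 table. The submitters' notes give the build hg38, and 58724 of 58735 genes have the name, start and end of GENCODE 29. The aligner and the counting program are not given in the sources used here. After a filter on low values (10 counts or more in 3 libraries or more), TMM-scaled counts were fitted with edgeR (version 4.0.16, R version 4.3.3) by glmQLFit and glmQLFTest on condition, with Benjamini-Hochberg adjustment over 15801 genes. Standard errors and 95% intervals came from the F statistic. RPKM was computed here from TMM-scaled CPM and the table's gene length, which equals the union of annotated exons for all 10 members. DESeq2 (1.42.0) and limma-voom (3.58.1), other scalings and filters, the replicate block and each library left out were alternatives. Single values were compared by exact permutation tests, whose smallest p is 0.10 here. Coding sequences were aligned globally with biopython (1.88).

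The members, lists and rules were chosen with earlier results of these data known. Named genes were SRSF11, SRSF12, the members, their copies and overlapping genes, and the 4 genes of each list with the smallest adjusted p under 0.05. Splicing events, which gene counts do not hold, were not analysed here.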

Additional observations from a re-analysis of the deposited data

How the results depend on the processing

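Over 14 alternative fits, 132 of 140 member values kept their direction and their side of the threshold. SRSF4 lost its call with DESeq2 (log2 fold change 0.20) and with library size alone (0.17), and ranged from 0.15 to 0.30 with one library left out. SRSF5 ranged from 0.16 to 0.25, and SRSF9 from -0.16 to 0.08, turning to 0.078 without si-SRSF11 replicate 1. With an absolute log2 fold change over 1 as well, 173 genes and 0 members passed. With library size alone or protein-coding genes only, 5 nonsense-mediated decay factors were called in place of 3, and with one library left out 2 to 5 were, and 3 to 5 of the kinase list. The log2 ratio of the summed RPKM was 0.16 per base of protein-coding transcripts and 0.29 without SRSF9, both added after the data were seen, and the cause was not tested for the other changes. The study speaks of pairs of samples, but neither it nor the labels say what a shared replicate number stands for. The correlations of deviations of same-numbered samples were 0.0303, 0.302 and 0.231. Each sample correlated best with its own number, but si-NC replicate 1 came to nearly the same value, 0.0272, with si-SRSF11 replicate 3. The replicate block called 4036 genes in place of 3886 and the same number of members, 9.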
